A study of Rattus norvegicus with 12 samples.

Results

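Bone of the rat skull roof that had been cut with a rotating bur was compared with bone that had not been cut, over all genes of the array, with attention to genes other than bone and marrow markers. The comparison used 8 of the 12 arrays of the series, 4 of bur-drilled bone and 4 of control bone, chosen by their labels. The remaining 4, of bone ablated with an Er:YAG laser, entered the same fit and a second comparison with bur. All samples were calvarial tissue taken 72 h after surgery from rats aged 10 weeks. In the bur group a defect of 8 by 3 mm was cut with a few strokes of the drill, and laser defects had the same size. In the control group, per the treatment protocol, the periosteum (the fibrous sheet over bone) was lifted off and no bone was removed, although the series design calls these samples non-treated. No genotype, allele or agent other than the surgery is given, and neither strain nor sex is given in the labels used here. Whether the 4 samples of a group were different animals is not stated, and if they were not, the p-values reflect technical spread alone.

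Cut bone heals from a blood clot through an inflammatory phase, in which monocytes arrive along gradients of CC chemokines and become macrophages that clear debris, followed by growth of fibrous tissue and new bone. Proteases of the plasminogen and metalloproteinase families open the clot and the matrix for moving cells, and S100 proteins and annexins bind calcium and membranes in cells under strain or repair. The skull roof also holds marrow spaces, with blood-forming cells and fat cells, whose RNA is read together with that of bone.

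Each array measured 22718 genes, 14483 of them with a gene symbol, from probes whose signal was well above background on 4 or more of the 12 arrays. Of all probes, 58.1% to 60.0% were well above background on control arrays, 63.0% to 67.0% on bur arrays and 59.8% to 65.5% on laser arrays. Detection was thus lower on every control array than on any bur array. Values are log2 signal relative to the array's 75th percentile, so 1 unit is a 2-fold difference, and levels are compared only between samples of the same probe. A gene is called higher or lower where its limma adjusted p is under 0.05, and "rose" and "fell" are used of such genes. The control samples shared 1 slide and the bur and laser samples the other, and the slides had separate scans, so slide, scan and treatment cannot be told apart. In tissue samples of this kind, fewer cells of a type and less RNA per cell cannot be told apart either.

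In bur-drilled bone 2270 genes rose, 9.99% of those tested, and 3678 fell, 16.2%, together 26.2%. Values of the 4 bur arrays lay above those of the 4 control arrays for 9.6% of genes and below them for 15.7%, so 25.3% of all genes did not overlap. Change was at least 2-fold for 913 of the genes that rose and 1687 of those that fell. The authors' deposited table lists 3692 higher and 3941 lower among 23269 lines. With normexp, another background correction, 1646 genes were called higher and 6306 lower, which moves the higher share of calls well below the 38.2% of the main setting, and the median of all genes shifted by -0.24. Single arrays moved these counts: omitting control replicate 1 left 878 higher and 1911 lower, omitting bur replicate 3 left 1211 and 2197, bur replicate 1 left 1210 and 2385, and control replicate 4 left 1476 and 2273. In addition, without bur replicate 4 the higher count was 1352, and without control replicate 3 it was 3794.

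The largest rises were those of genes for monocyte-attracting chemokines and for 2 matrix metalloproteinases, the macrophage elastase gene Mmp12 and the matrilysin gene Mmp7. Mmp12 signal was -4.93, -2.05, -1.77 and -5.40 on control replicates 1 to 4 and 0.33, 0.23, -0.14 and 0.37 on bur replicates 1 to 4. The bur arrays lay close together and all above the controls, the latter being a condition of the gene's choice. Controls 1 and 4 were far below controls 2 and 3. The rise was 3.73 (SE 0.80, n = 4 per group), 13.3-fold, with limma adjusted p = 0.00991.

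Ccl2, which encodes the chemokine that recruits monocytes through the receptor CCR2, showed the same arrangement. Its signal was -1.46, 0.76, 0.66 and -2.77 on control and 2.93, 3.14, 2.63 and 1.43 on bur replicates 1 to 4, a 9.41-fold rise (limma adjusted p = 0.0122). Ccl7, whose product binds the same receptor, stood at -3.34, -1.45, -1.52 and -6.07 on control and at 1.01, 1.17, 0.88 and -0.53 on bur replicates. Bur replicate 4 was the lowest of its group for Ccl2, Ccl7, Ccl12 and Ccl4. That none of these genes overlapped with control was a condition of their choice. Ccl12 rose by 3.09 (SE 0.66), Ccl4, a chemokine gene of activated macrophages, by 2.42 (SE 0.52) and Ccl9 by 2.38 (SE 0.56). The spread of Ccl9 was much smaller in bur (1.33 ± 0.15, SD, n = 4) than in control bone (-1.05 ± 1.25, SD, n = 4). The probes of these 5 chemokine genes lie on chromosome 10 of build rn4, those of Ccl2, Ccl7 and Ccl12 between 70257919 and 70322506 and those of Ccl9 and Ccl4 between 71645984 and 71760324. Cxcl3, on chromosome 14, which encodes a neutrophil attractant, rose by 3.37 (SE 0.76), with bur replicate 3 at -0.50 and the other bur arrays between -3.76 and -3.28.

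Motifs of AP-1 and NF-kB were looked for in promoters because Fos, a subunit of the transcription factor AP-1, and Nfkbiz, a co-regulator of NF-kB, rose. Every promoter shown holds a match, so the runs are examples and not a sample of the genes in this comparison. Each run gives the 250 bases before the RefSeq transcription start in assembly GRCr8, 5′ to 3′ on the strand of the gene, with AP-1 or NF-kB motif matches in capitals. They lie at chr8:12866402-12866651 (Mmp12, plus strand), chr8:13132793-13133042 (Mmp7, plus), chr10:67513845-67514094 (Ccl7, plus), chr11:58251471-58251720 (Nfkbiz, plus) and chr2:206742784-206743033 (Vcam1, minus).
Mmp12: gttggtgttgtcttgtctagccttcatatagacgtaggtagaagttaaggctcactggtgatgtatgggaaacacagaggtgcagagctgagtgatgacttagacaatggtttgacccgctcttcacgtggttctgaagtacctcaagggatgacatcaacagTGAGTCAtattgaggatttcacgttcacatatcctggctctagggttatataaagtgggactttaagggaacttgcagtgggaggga
Mmp7: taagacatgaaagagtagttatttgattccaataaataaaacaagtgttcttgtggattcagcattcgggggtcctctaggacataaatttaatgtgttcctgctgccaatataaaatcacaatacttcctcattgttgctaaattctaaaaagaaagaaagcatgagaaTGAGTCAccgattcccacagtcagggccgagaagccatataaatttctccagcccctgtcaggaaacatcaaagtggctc
Ccl7: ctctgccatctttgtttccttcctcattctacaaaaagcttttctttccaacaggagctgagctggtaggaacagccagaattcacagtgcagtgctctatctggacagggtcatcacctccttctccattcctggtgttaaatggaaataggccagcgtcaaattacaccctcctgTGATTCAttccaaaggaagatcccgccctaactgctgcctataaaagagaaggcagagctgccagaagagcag
Nfkbiz: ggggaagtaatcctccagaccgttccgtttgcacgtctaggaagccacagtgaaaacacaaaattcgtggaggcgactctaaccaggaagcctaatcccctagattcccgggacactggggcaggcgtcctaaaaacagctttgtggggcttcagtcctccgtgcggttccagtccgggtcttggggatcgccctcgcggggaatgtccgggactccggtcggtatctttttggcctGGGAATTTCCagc
Vcam1: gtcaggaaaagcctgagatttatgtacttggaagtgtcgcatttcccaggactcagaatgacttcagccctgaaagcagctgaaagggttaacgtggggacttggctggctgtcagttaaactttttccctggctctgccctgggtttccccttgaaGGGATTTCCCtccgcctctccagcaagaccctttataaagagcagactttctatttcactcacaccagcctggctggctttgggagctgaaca
The AP-1 motif searched was TGANTCA on either strand, and its first base lies 87 bases before the start of Mmp12, 80 before that of Mmp7 and 73 before that of Ccl7. Of the 25 genes with the largest rise 15 matched a promoter, and 3 of these (20.0%) held the AP-1 motif, against 6.34% of all 33469 promoters. Those 3 are the ones shown, Mmp12, Mmp7 and Ccl7. Of the 25 with the largest fall 17 matched and 1 (5.88%) held it. The NF-kB consensus was held by 1 of the 15 and by 2 of the 17, against 3.54% of all promoters. It also lies in the promoters shown of Nfkbiz, which rose, and Vcam1, which fell. Neither gene is among these 25 rises or 25 falls, so neither is in those counts. With so few promoters these shares describe the matched promoters only, and a match is not a binding site.

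Fos itself was 5.02-fold higher in bur bone (limma adjusted p = 0.00893). It stood at -5.95, -4.17, -4.13 and -6.44 on control and at -2.55, -2.89, -2.61 and -3.32 on bur replicates. The lack of overlap was a condition of its choice. Rgs1, which limits chemokine receptor signals in leukocytes, rose by 2.29 (SE 0.50), and Havcr2, which encodes the inhibitory receptor TIM-3 of T cells and myeloid cells, by 2.59 (SE 0.45). Havcr2 was highest on bur replicate 3, at -0.66, with the other bur arrays between -2.41 and -2.18 and controls between -5.38 and -3.51. Anxa8, a member of the annexins, rose by 3.11 (SE 0.75), and control replicate 4 stood apart at -8.82 while the other controls were between -5.59 and -4.94. Tppp3, which encodes a tubulin-binding protein found in sheaths of tendon and other fibrous tissue, was between -2.70 and 0.50 in control and between 1.1 and 3.19 in bur bone, a rise of 2.49 (SE 0.65). Steap1, of a family of metal reductases, rose by 2.32 (SE 0.59), Has2, the gene of a hyaluronan synthase, by 2.50 (SE 0.79) and Trem2, a lipid-sensing receptor gene of macrophages, by 2.40 (SE 0.72). In the 12 fits with 1 array omitted, Has2 passed in 7, Trem2 in 6, and Tppp3 and Steap1 in 11.

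**Figure D1:**
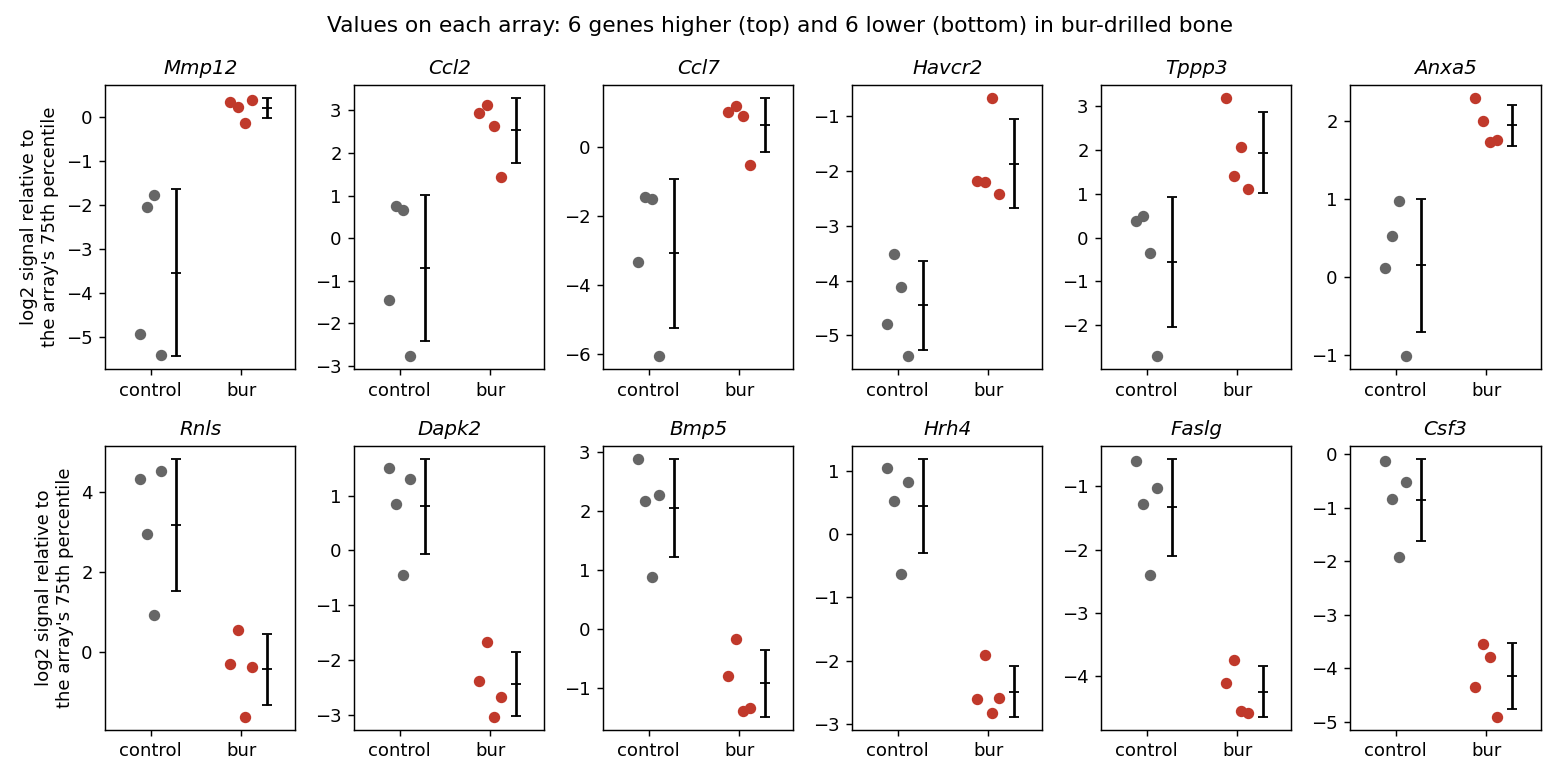
Log2 signal relative to the array's 75th percentile (y axis, scaled for each gene) on the 4 control (grey) and 4 bur arrays (red) for 12 genes, with bars giving mean ± SD of 4 arrays. The groups do not overlap for any of the 12 genes, which for all but Anxa5 was a condition of their choice. For genes such as Mmp12 and Ccl7 the control arrays spread much more than the bur arrays.

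Several of the largest rises were in genes near or below background in control bone, and their size rests on that background. Of the 25 largest rises, 7 were seen well above background on 0 control arrays, 6 on only some and 12 on all 4. The transcription factor gene Pax1, which patterns the axial skeleton, was at least 8.19-fold higher, and Psca, which encodes a membrane-anchored surface protein, at least 4.39-fold. The potassium channel subunit gene Kcng3 was at least 2.48-fold higher, the actin filament nucleator gene Lmod3 at least 2.38-fold, the bicarbonate transporter gene Slc4a9 at least 2.06-fold and the Ras effector gene Rin1 at least 1.40-fold. Such a bound sets the bur mean against the lowest signal with which any probe of an array counted as well above background. It belongs to the main setting and is no lower limit under another background correction, as the next values show. With normexp Kcng3 (-0.11), Lmod3 (-0.12), Slc4a9 (-0.15) and Rin1 (-0.18) turned sign, and Pax1 (0.51), Psca (0.19), Card14 (0.22) and Phlda3 (0.30) kept theirs without passing. The authors' deposited table gives Pax1 a log2 difference of 1.46, Kcng3 0.50, Lmod3 0.52, Psca 0.86 and Card14 0.97. Psca passed in only 4 of the 12 fits that left out an array. Card14, a scaffold gene of NF-kB signalling, was seen above background on 1 control array and Phlda3, a p53 target gene, on 3.

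The same held over the whole array. Of 857 genes seen on 0 control arrays 288 (33.6%) rose, and 0 of these were called higher with normexp. Such genes had entered through the treated arrays and so had to be higher there. Of 2885 genes seen on 1 to 3 control arrays 198 (6.86%) rose, 10 of which were also called with normexp. Of 18976 genes seen on all 4 control arrays 1784 (9.4%) rose and 3593 (18.9%) fell, and 1206 and 3560 of them were also called so with normexp. Of the 25 largest rises 16 were called with normexp, as were all 25 of the largest falls.

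**Figure D2:**
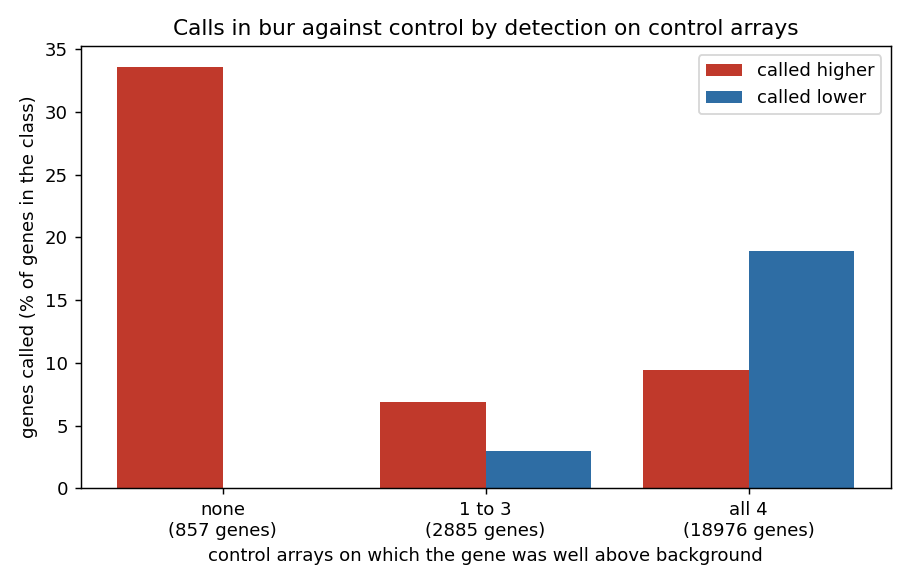
Share of genes called higher (red) or lower (blue) in bur against control, in percent of the genes in each class (y axis), by the number of control arrays on which the gene was well above background (x axis). Among genes seen on no control array 33.6% were called higher and none lower, while among genes seen on all 4, 9.4% were higher and 18.9% lower.

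Among the largest falls were Rnls, Suv39h2 and Csf3. Rnls, which encodes the flavoprotein renalase, stood at 4.32, 2.95, 0.92 and 4.52 on control and at -0.30, 0.54, -1.63 and -0.39 on bur replicates. It fell by 3.62 (SE 0.77), and only control replicate 3 came near the bur arrays. The Suv39h2 gene, for a histone methyltransferase of silent chromatin, fell from -0.41 ± 0.95 to -4.43 ± 0.73 (SD, n = 4). Csf3, the gene of G-CSF, the growth factor of granulocytes, was at -0.13, -0.83, -1.92 and -0.52 on control and at -4.35, -3.54, -3.79 and -4.91 on bur replicates, so the neutrophil attractant gene Cxcl3 and the neutrophil growth factor gene moved in opposite directions.

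The other large falls included Hrh4, Dapk2, Faslg and Bmp5. Hrh4, the gene of the histamine receptor of blood-forming and immune cells, was at 1.05, 0.53, -0.63 and 0.83 on control and at -2.61, -1.91, -2.83 and -2.59 on bur replicates, a fall of 2.93 (SE 0.36). Dapk2, a calcium-dependent kinase gene linked to cell death and granulocyte maturation, fell by 3.24 (SE 0.43), and Faslg, the death ligand gene of cytotoxic lymphocytes, fell by 2.92 (SE 0.36). Bmp5, a bone morphogenetic protein gene, was between 0.89 and 2.88 in control and between -1.38 and -0.16 in bur bone, and so fell by 2.97 (SE 0.41). The pacemaker channel gene Hcn4 fell by 3.26 (SE 0.56), Gnaz, a G protein alpha subunit gene, fell by 2.84 (SE 0.69), Pkib, an inhibitor gene of protein kinase A, fell by 2.88 (SE 0.44) and the homeobox gene Tlx3 fell by 2.85 (SE 0.57). The authors' deposited table gives the same Pkib probe a log2 difference of -2.75, while another probe of the gene, the one used from the deposited log2 values because the first is listed there more than once, was at -0.09 and did not pass. Ecel1, a neuronal peptidase gene, fell by 3.78 (SE 0.67), Pnma3 fell by 2.80 (SE 0.41), Tmc4 fell by 3.26 (SE 0.72) and the chromatin ATPase gene Atad2 fell by 2.94 (SE 0.31). Others were Prp15 (-4.22), Rnase12 (-3.21), Olr1485 (now Or1e23, an olfactory receptor gene, -3.08) and Mrap, which encodes an accessory protein of melanocortin receptors (-2.82). Gkn3 was not well above background on any bur array and was at least 4.87-fold lower. Pom121l2 (-3.41) and Spata6l (-2.82) had this sign in 1 of their 2 kept probes. Aqp7, Cidec, Gfra3, Lep and Olr1485 were well above background on 1 of the 4 bur arrays and Gys2, Pom121l2 and Plin4 on 2, so the sizes of these falls rest partly on signal near background.

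Control arrays differed among themselves in step with these genes. On all 25 of the largest falls control replicates 1 and 4 lay above replicates 2 and 3, and on 20 of the 25 largest rises they lay below them. The spread was larger in control than in bur bone for 19 of the rises and 21 of the falls. A marrow score, the mean of erythroid, neutrophil and B cell marker lists set against the 12-array mean, stood in control replicates 1 to 4 at 1.36, 0.81, 0.15 and 2.11 and in bur replicates 1 to 4 at -0.65, 0.04, -1.24 and -0.39. It was thus highest on the same 2 control arrays, and lower on every bur array than on any control array. With the score as a covariate 1 gene, Slc6a3 (named after its value was seen), was called higher and 0 lower, the median size of change over the 5948 called genes went from 0.92 to 0.44 and its median SE from 0.22 to 0.29, and 95.7% kept their sign. None of the other genes named here passed in that fit. The part of the marrow in each single gene's change was not tested. Among 142 of the genes named with a call, 93 passed in every fit with an array omitted. The call ended for 44 without control replicate 1, 36 without bur replicate 3, 32 without bur replicate 1, 28 without control replicate 4, 25 without bur replicate 4 and 19 without bur replicate 2, and none turned sign.

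**Figure D3:**
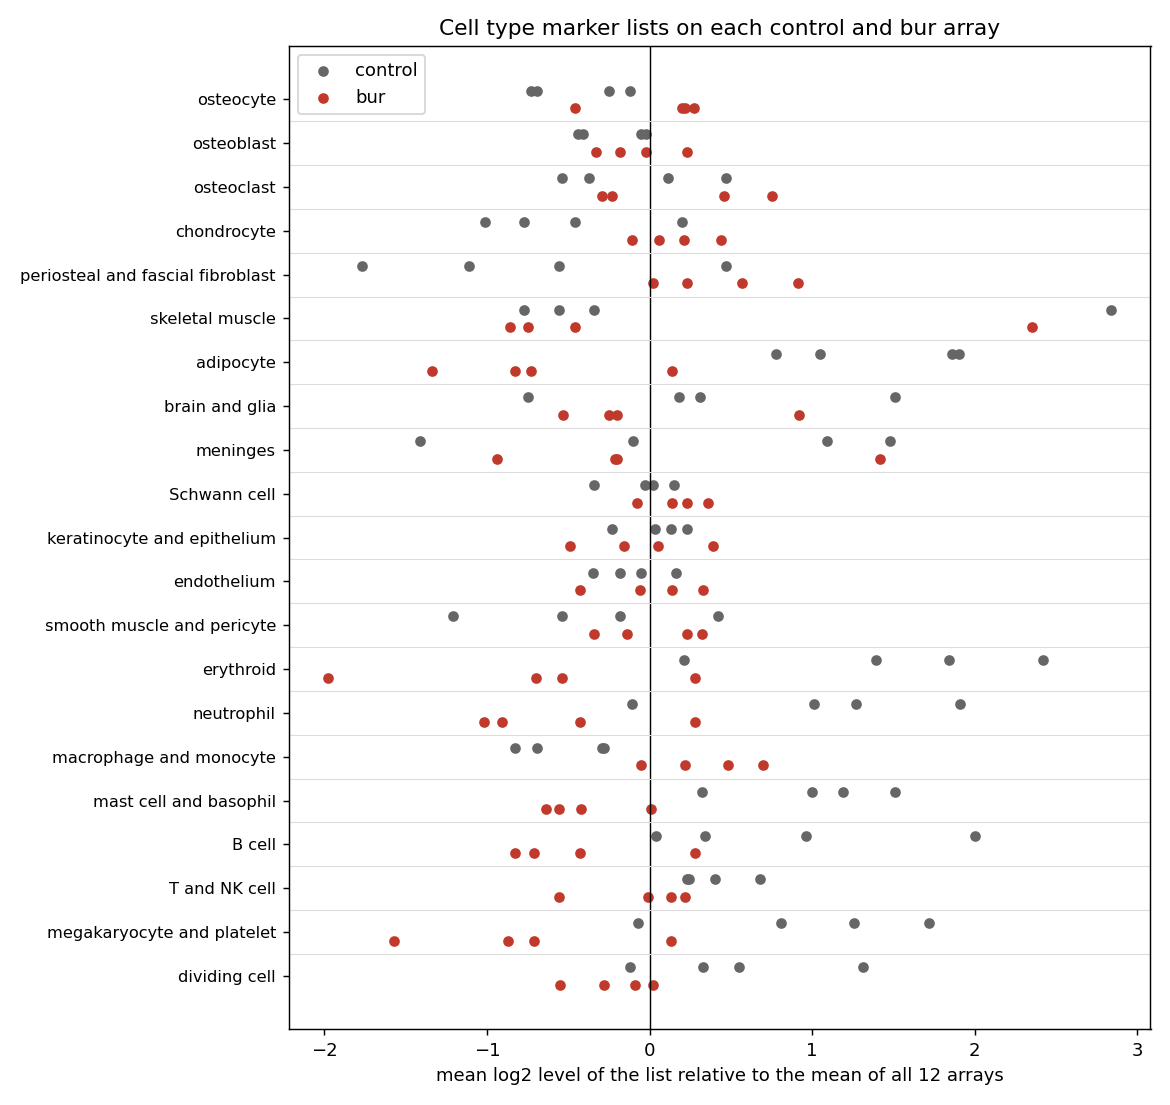
Mean log2 level of each cell type marker list relative to the mean of all 12 arrays (x axis) on each control (grey) and bur array (red), for the 21 lists (y axis). The mast cell and basophil list and the adipocyte list lie higher on every control array than on any bur array, the macrophage list is higher on every bur array, and the skeletal muscle list stands apart on replicate 1 of both groups (2.84 in control and 2.35 in bur).

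Markers of the cells in the tissue moved as follows, where 9.99% of all genes rose and 16.2% fell. Of 14 erythroid markers 14 fell (median -2.31), of 10 mast cell and basophil markers 8 (median -1.31), of 10 megakaryocyte and platelet markers 8 (median -1.68), of 13 neutrophil markers 7 (median -1.43) and of 8 adipocyte markers 6 (median -2.44), against a median of 0 over all genes. Hdc, the histamine-forming enzyme gene of mast cells and basophils, fell by 2.09 (SE 0.49). Of 14 markers of dividing cells 7 fell (median -0.86) and of 11 B cell markers 4 (median -1.32). Of 13 T and NK cell markers 5 fell and 1 rose (median -0.87). Among 14 markers of macrophages and monocytes 5 rose and none fell (median 0.82), Ms4a7 by 2.11 (SE 0.39), Cd14, a co-receptor gene for bacterial lipopolysaccharide, by 2.03 (SE 0.36), the scavenger receptor gene Msr1 by 1.82 (SE 0.48), Adgre1 by 1.22 (SE 0.33) and Csf1r by 0.88 (SE 0.26). The 9 that did not pass ran from -0.76 (Cd163) to 1.77 (Gpnmb). The signal summed over the 14 markers, relative to the 75th percentile, overlapped, at 166 to 199 on bur and 162 to 205 on control arrays. Of 9 markers of periosteal and fascial fibroblasts 3 rose and 1 fell (median 1.16). These were the matrix genes Dpt (3.37, SE 1.02) and Lum (1.49, SE 0.39), Pi16 (2.08, SE 0.57) and Dpp4 (-1.22, SE 0.37). On control replicate 3 this list was at 0.47, inside the bur range of 0.02 to 0.91, and the other controls were between -1.77 and -0.56. Skeletal muscle (0 of 10), brain (0 of 8) and osteoclast markers (0 of 8) held no call, and 1 of 10 endothelial markers fell. Defining osteoblast and osteocyte markers were well above background on every array. Of 9 measured osteoblast markers 1 rose and 1 fell, and of 8 osteocyte markers 1 rose and 1 fell. Dpt, Pi16, Dpp4 and Csf1r each passed in 7 of the 12 fits that left out an array, Lum in 9, and Msr1 and Adgre1 in 10.

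Among proteolysis genes, both plasminogen activators rose. Of 20 measured genes of the plasminogen system, coagulation and serpins 6 rose (30%, against 9.99% of all genes) and 2 fell (10%, against 16.2%), with a median of 0.21. Plau, the urokinase gene, was at -5.92, -4.86, -4.52 and -6.27 on control and at -4.19, -3.71, -3.43 and -2.77 on bur replicates, a 3.64-fold rise (limma adjusted p = 0.00999). Plat, the tissue plasminogen activator gene, rose by 1.84 (SE 0.54). Tfpi2, an inhibitor gene of serine proteases, rose by 1.62 (SE 0.37), while Plg, the gene of plasminogen itself, fell by 0.73 (SE 0.15) and Serpinb1a, an inhibitor gene of neutrophil proteases, fell by 1.22 (SE 0.36). With normexp Plau (0.51) and Tfpi2 (0.11) did not pass, and Serpinb1a passed in 7 and Plat in 8 of the 12 fits that left out an array.

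Calcium-binding S100 and annexin genes were the list with the largest share of rises, 10 of 21 (47.6%) against 9.99% of all genes, with 1 fall and a median of 0.78. The list leaves out S100a8 and S100a9, which were counted as neutrophil markers. S100a8 fell by 1.4, and S100a9 was at -1.38 without passing, so the share does not describe the whole S100 family. Anxa5, whose product binds phosphatidylserine on dying cells, was at 0.11, 0.52, 0.97 and -1.01 on control and at 2.29, 1.99, 1.73 and 1.75 on bur replicates, without overlap, a 3.47-fold rise (limma adjusted p = 0.00753). Anxa4 rose by 1.84 (SE 0.39), S100a10, the partner of annexin A2 at the cell surface, by 1.47 (SE 0.32) and S100a6 by 1.42 (SE 0.36). Anxa3, found in granules of neutrophils, fell by 1.26 (SE 0.30). The list held its sign under each scaling, with medians of 0.53 with normexp and 0.74 with quantile normalization. S100a6 lost its call without control replicate 1.

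**Figure D4:**
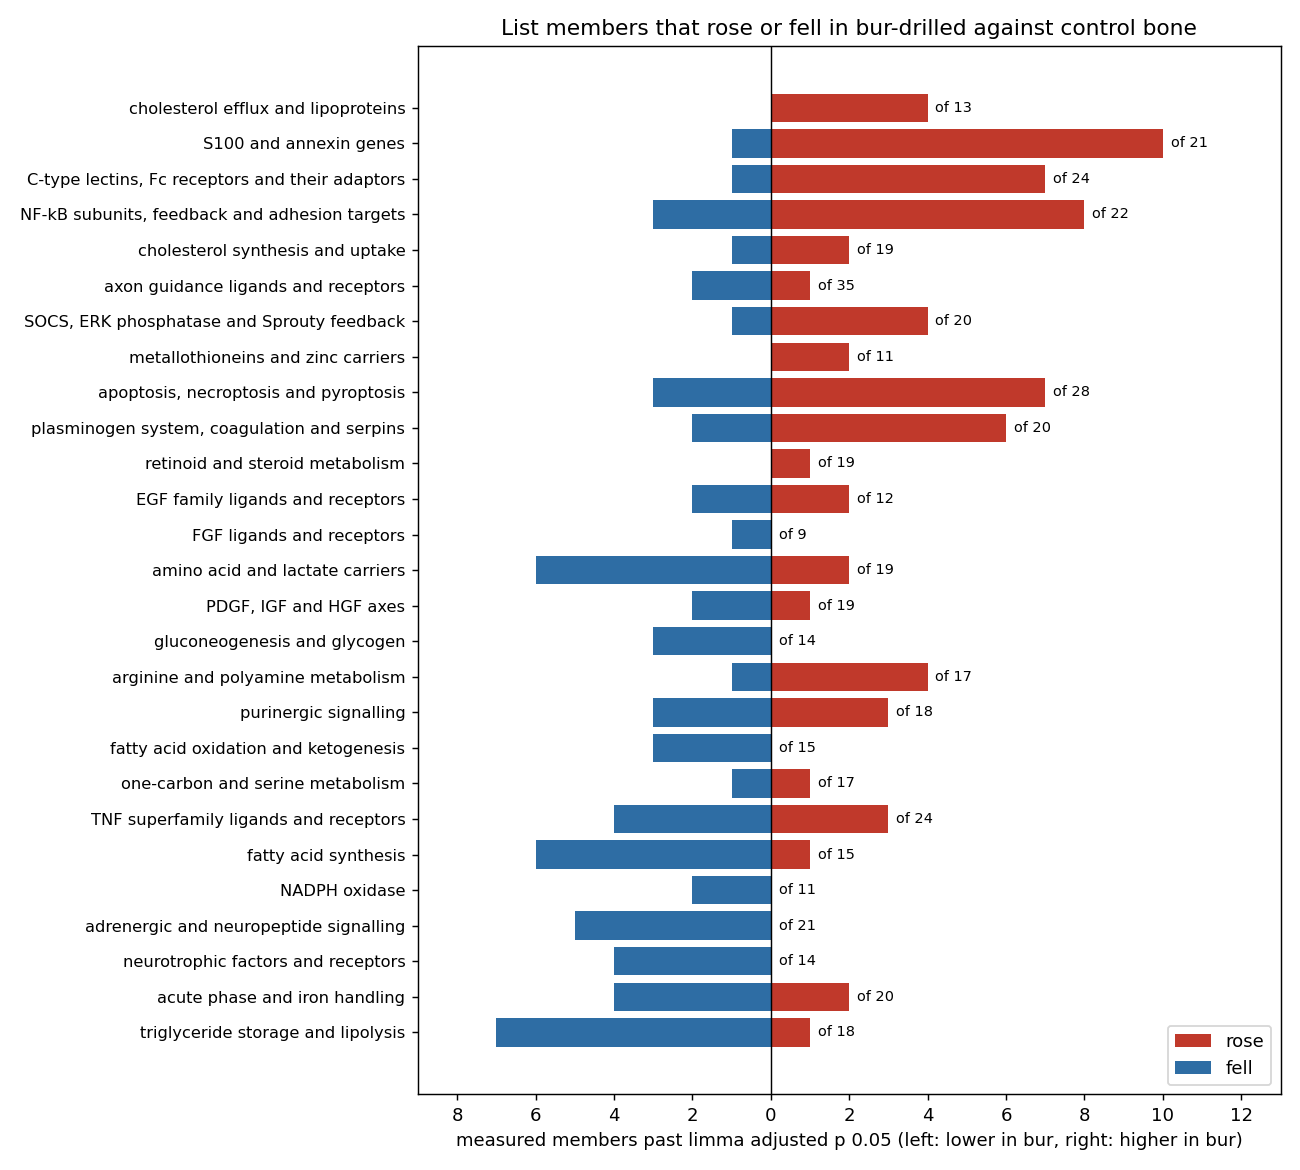
Number of measured members of each of 27 gene lists that rose (right, red) or fell (left, blue) in bur against control at a limma adjusted p under 0.05 (x axis), with the number measured beside each bar. Lists (y axis) are ordered by the median difference of their members, and the S100 and annexin list holds the most rises, 10 of 21.

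Several receptor genes of myeloid cells rose as well. Of 24 C-type lectin, Fc receptor and adaptor genes 7 rose (29.2%, against 9.99% of all genes) and 1 fell (4.17%, against 16.2%), with a median of 0.55. Fcgr2a, an Fc receptor gene, rose by 1.69 (SE 0.43), with bur replicate 4 at 2.40 and the other bur arrays between 3.68 and 3.81, and control replicate 2 at 2.69. Lilrb4, an inhibitory receptor gene, rose by 2.05 (SE 0.65), and the lectin gene Clec4a2 by 1.32 (SE 0.35). Clec4e, which encodes Mincle, a sensor of dead cells and mycobacterial lipids, was at least 3.71-fold higher and was at 0.07 with normexp, where it did not pass. Clec1b, the podoplanin receptor gene of platelets, fell by 2.09 (SE 0.51), and 8 of 10 megakaryocyte and platelet markers also fell. Lilrb4 passed in 6 of the 12 fits that left out an array, Clec4a2 in 9 and Fcgr2a in 11.

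Of 22 NF-kB genes, 8 rose (36.4%, against 9.99% of all genes) and 3 fell (13.6%, against 16.2%), with a median of 0.52. Among the feedback genes Nfkbiz was at -5.38, -4.69, -4.56 and -5.42 on control and at -3.36, -3.64, -2.98 and -4.07 on bur replicates, a rise of 1.5 (SE 0.28). Birc3, which encodes a ubiquitin ligase of the pathway, rose by 0.63 (SE 0.18). The 3 endothelial adhesion genes that passed did not move together. Icam1 rose by 0.90 (SE 0.30), but passed in only 3 of the 12 fits that left out an array. Vcam1 fell by 1.30 (SE 0.37), and Selp, the P-selectin gene of platelets and endothelium, fell by 1.81 (SE 0.32). Vcam1 passed in 7 of those fits and Selp in all 12. Vcam1 was between 2.73 and 3.93 in control and between 1.85 and 2.57 in bur bone. The subunit gene Nfkb2 fell by 1.22 (SE 0.32) and passed in 11 of those fits, and Birc3 passed in 8. With normexp 4 rather than 8 members rose.

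Of 24 genes of the TNF superfamily 3 rose and 4 fell, which is near the background of 26.2%. Tnfsf9, the 4-1BB ligand gene, rose by 1.57 (SE 0.25), from between -4.52 and -3.16 in control to between -2.49 and -2.09 in bur bone, without overlap. Tnfrsf12a, the TWEAK receptor gene induced in injured tissue, rose by 2.10 (SE 0.61), with control replicate 3 inside the bur range at -1.24. Ltb, the lymphotoxin gene of lymphocytes, fell by 1.80 (SE 0.45) and Tnfsf14, the gene of the lymphocyte ligand LIGHT, fell by 1.39 (SE 0.40). Of 28 cell death genes 7 rose (25%, against 9.99% of all genes) and 3 fell (10.7%, against 16.2%), with a median of 0.22. Bcl2a1, a survival gene of activated leukocytes, rose by 1.54 (SE 0.33), and Bax, a mitochondrial death effector gene, by 1.07 (SE 0.22). The necroptosis genes Mlkl and Ripk3 rose by 0.77 (SE 0.16) and 0.59 (SE 0.16). Xiap, an inhibitor gene of caspases, fell by 0.97 (SE 0.30), but was at -0.48 without passing as the mean of its probes. Tnfsf14, Ripk3 and Xiap each passed in 7 and Tnfrsf12a in 8 of the 12 fits that left out an array.

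Among feedback genes of cytokine and ERK signalling 4 of 20 rose (20%, against 9.99% of all genes) and 1 fell (5%, against 16.2%), with a median of 0.29. Socs3, which damps signals of the IL-6 family, was at -0.77, -0.54, -0.53 and -1.41 on control and at 0.20, 0.44, 0.71 and -0.15 on bur replicates, a rise of 1.11 (SE 0.22). Dusp7, an ERK phosphatase gene, rose by 1.12 (SE 0.23), while Socs7 fell by 0.67 (SE 0.15). The groups did not overlap for any of these 3 genes.

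Of 12 EGF family genes 2 rose and 2 fell, 16.7% each way, against 9.99% and 16.2% of all genes. The receptor gene Erbb3 was at -4.91, -3.73, -3.70 and -5.42 on control and at -2.34, -2.04, -2.26 and -2.80 on bur replicates, a 4.23-fold rise (limma adjusted p = 0.00524). Hbegf, the gene of the heparin-binding ligand, rose by 1.30 (SE 0.31) but was at -0.03 with normexp, and was well above background on 3 control arrays. The ligand gene Tgfa fell by 0.96 (SE 0.15), with controls between -2.04 and -1.82, but by 0.10 without passing as the mean of its 3 probes. The ligand gene Nrg4 fell by 1.35 (SE 0.25). Of 19 genes of the PDGF, IGF and HGF axes 1 rose and 2 fell, fewer than the background. Met, the HGF receptor gene, rose by 1.02 (SE 0.27) and passed in 9 of the 12 fits that left out an array. Pdgfa fell by 2.57 (SE 0.34) on its brightest probe, and was at -0.34 without passing as the mean of 3 probes, of which 1 had this sign. Of 9 measured FGF genes 1 passed, the decoy receptor gene Fgfrl1, which fell by 0.75 (SE 0.19).

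Of 14 neurotrophic factor and receptor genes 4 fell (28.6%, against 16.2% of all genes) and none rose, with a median of -0.39. Nrtn, the neurturin gene, fell from -0.30 ± 0.79 to -2.33 ± 0.17 (SD, n = 4), and Gfra3, the artemin receptor gene, fell by 1.82 (SE 0.52). Among those that did not pass, the factor genes Gdnf and Artn were at 1.92 and 1.25. Of 21 adrenergic and neuropeptide genes 5 fell (23.8%) and none rose, with a median of -0.38, and Npy2r, a neuropeptide Y receptor gene, was at 1.1 without passing. Npy, the gene of the sympathetic transmitter neuropeptide Y, fell by 1.98 (SE 0.47), with control replicate 3 at 1.74 below the highest bur value of 1.96. Calca, the gene of the sensory peptide CGRP, fell by 1.57 (SE 0.49), and the receptor genes Adra2b, Adrb3 and Vipr2 fell by 0.97, 1.12 and 0.86. Of 9 Schwann cell markers, for the cells that sheathe nerves, 1 rose and 1 fell, with a median of 0.17 that turned sign with normexp. Of 35 axon guidance genes 1 rose and 2 fell, under the background, with Sema3c, a secreted semaphorin gene, at 1.78 (SE 0.45) and the plexin gene Plxnc1 at -1.22 (SE 0.34). Calca passed in 5, Adrb3 in 6, and Gfra3 and Plxnc1 in 8 of the 12 fits that left out an array.

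Of 18 triglyceride storage and lipolysis genes 7 fell (38.9%, against 16.2% of all genes), 1 rose and 10 did not pass, with a median of -0.60. Among the 10 were Pnpla2, the first triglyceride lipase gene (-0.05), and Lpl, the lipoprotein lipase gene (0.64). Gpd1, which makes the glycerol backbone of triglyceride, was at -0.15, -2.38, -2.44 and -0.73 on control and at -3.70, -3.52, -4.34 and -4.68 on bur replicates, a 6.21-fold fall (limma adjusted p = 0.00696). The lipid droplet genes Cidec and Plin4 fell by 2.64 (SE 0.67) and 2.62 (SE 0.64). In contrast Plin2, the droplet coat gene found in many cell types, rose by 1.0 (SE 0.32), with overlap. The glycerol channel gene Aqp7 fell by 3.16 (SE 0.51). Of 15 fatty acid synthesis genes 6 fell (40.0%) and 1 rose, with a median of -0.27, among them Thrsp, a lipogenic regulator gene, which fell by 2.80 (SE 0.59), Acsl1, which fell by 1.71 (SE 0.37), and Fasn, the fatty acid synthase gene, which fell by 0.64 (SE 0.18). Scd, the desaturase gene, was at -1.0 (SE 0.33) and passed in only 2 of the 12 fits that left out an array, Fasn and Plin2 in 7, and Plin4 in 11. The uncoupling protein genes Ucp3 and Ucp2 fell by 1.52 (SE 0.33) and 1.24 (SE 0.35). Of 14 gluconeogenesis and glycogen genes 3 fell (21.4%, near the 16.2% of all genes) and none rose, with a median of 0.03. These were Gys2, the liver-type glycogen synthase gene (-4.47, SE 0.78), Pygl, the liver-type phosphorylase gene (-1.76, SE 0.41), and Pck1, which was at least 4.96-fold lower and is also an adipocyte marker. The adipocyte markers Lep, Adipoq and Retn fell by 4.27, 3.17 and 2.24, and the part of fat cells in the falls of the metabolic genes was not tested.

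Of 13 cholesterol efflux and lipoprotein genes 4 rose (30.8%, against 9.99% of all genes), none fell and 9 did not pass, with a median of 0.85, and the list held its sign under each scaling. Ch25h, whose enzyme makes 25-hydroxycholesterol in activated macrophages, was at -3.57, -3.10, -2.60 and -4.85 on control and at -1.51, -2.06, -1.44 and -1.75 on bur replicates, a 3.57-fold rise (limma adjusted p = 0.01). Apoe, the lipoprotein gene of macrophages and other cells, rose by 1.76 (SE 0.59), but passed in only 2 of the 12 fits that left out an array, and Npc2, the lysosomal cholesterol carrier gene, rose by 0.85 (SE 0.26) and passed in 7. Of 19 cholesterol synthesis genes 2 rose and 1 fell, under the background. Insig1, which holds back the synthesis pathway, rose by 1.06 (SE 0.25), while Fdft1, the squalene synthase gene, fell by 0.50 (SE 0.11) with a narrow spread in both groups. As given above, 5 of 14 macrophage markers rose, and their part in these rises was not tested.

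Of 17 arginine and polyamine genes 4 rose (23.5%, against 9.99% of all genes) and 1 fell (5.88%, against 16.2%). Sat1, the polyamine-acetylating enzyme gene, rose by 1.08 (SE 0.25), and Oat, which links ornithine to proline, by 0.77 (SE 0.16), both without overlap. Arg1, the arginase gene of repair-type macrophages, was at -3.33, -1.61, -1.19 and -4.80 on control and at -0.46, -1.64, 2.44 and 0.00 on bur replicates. Its groups overlapped, and its rise of 2.82 (SE 0.96, limma adjusted p = 0.0493) was lost in 10 of the 12 fits that left out an array. The median of this list was -0.04 and turned sign with another scaling.

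Carriers of amino acids and metals changed gene by gene. Of 19 amino acid and lactate carriers 2 rose (10.5%, against 9.99% of all genes) and 6 fell (31.6%, against 16.2%). Slc7a10, a neutral amino acid carrier gene of fat and brain, fell by 3.79 (SE 0.65), Slc6a9, a glycine carrier gene, fell by 1.38 (SE 0.33) and Slc1a4 fell by 1.59 (SE 0.25), the last at -0.55 without passing as the mean of its probes. Slc38a4 rose by 1.96 (SE 0.63), with overlap, and passed in 5 of the 12 fits that left out an array. The zinc carrier genes Slc39a14 and Slc30a4 rose by 1.77 (SE 0.38) and 1.40 (SE 0.39), 2 of 11 measured zinc and metallothionein genes (18.2%). Of 20 acute phase and iron genes 2 rose (10%) and 4 fell (20%), near the shares of all genes, with a median of -0.46. The iron exporter gene Slc40a1 was between 0.55 and 1.84 in control and between -0.47 and 0.27 in bur bone, a fall of 1.31 (SE 0.30). Slc11a1, the phagosome metal carrier gene of macrophages, rose by 1.38 (SE 0.43), and Hp, the haptoglobin gene, fell by 1.51 (SE 0.50), both with overlap. Slc11a1 passed in 7 and Hp in 4 of the 12 fits that left out an array.

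Of 18 purinergic genes 3 rose and 3 fell, 16.7% each way, against 9.99% and 16.2% of all genes. Adora1, an adenosine receptor gene, was at -1.95, -2.48, -2.93 and -1.78 on control and at -4.18, -3.50, -4.36 and -4.59 on bur replicates, a 3.67-fold fall (limma adjusted p = 0.00654). P2ry6, the UDP receptor gene of microglia and macrophages, rose by 1.40 (SE 0.37). Other lists held few calls. Of 11 NADPH oxidase genes 2 fell (18.2%) and of 15 fatty acid oxidation genes 3 fell (20%), both near the 16.2% of all genes. Of 17 one-carbon genes 1 rose and 1 fell (5.88% each), and of 19 retinoid and steroid genes 1 rose (5.26%). The last was Crabp2, a retinoic acid carrier gene, at 2.60 (SE 0.67), which is also on the list of meningeal markers, of which it was the only one of 9 to pass. P2ry6 and Crabp2 each passed in 10 of the 12 fits that left out an array.

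Bur and laser bone were compared directly to see where drilling differed from ablation by light. Of 22718 genes limma called 0 between them (percent called 0), the smallest adjusted p was 0.429, and at an unadjusted p under 0.05 there were 105 higher and 469 lower in bur. Without the detection filter 1 gene was called lower. Of the 5948 genes called in bur against control, 5919 (99.5%) had a bur-minus-laser estimate within 1 unit of log2, with a median size of 0.15. Over the 24 of the 25 largest rises given here the difference ran from -0.06 (Lmod3 and Ccl9) to 1.01 (Rin1), and its 95% interval held 0 for 23 of them. Over the 25 largest falls it ran from -1.41 (Gys2) to 0.15 (Pom121l2), and the interval held 0 for 24. The interval reached past 1 unit of log2 for 22 genes of each set, so for those a difference of that size between the methods lies inside it. Bur and laser also lay in separate slide columns.

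**Figure D5:**
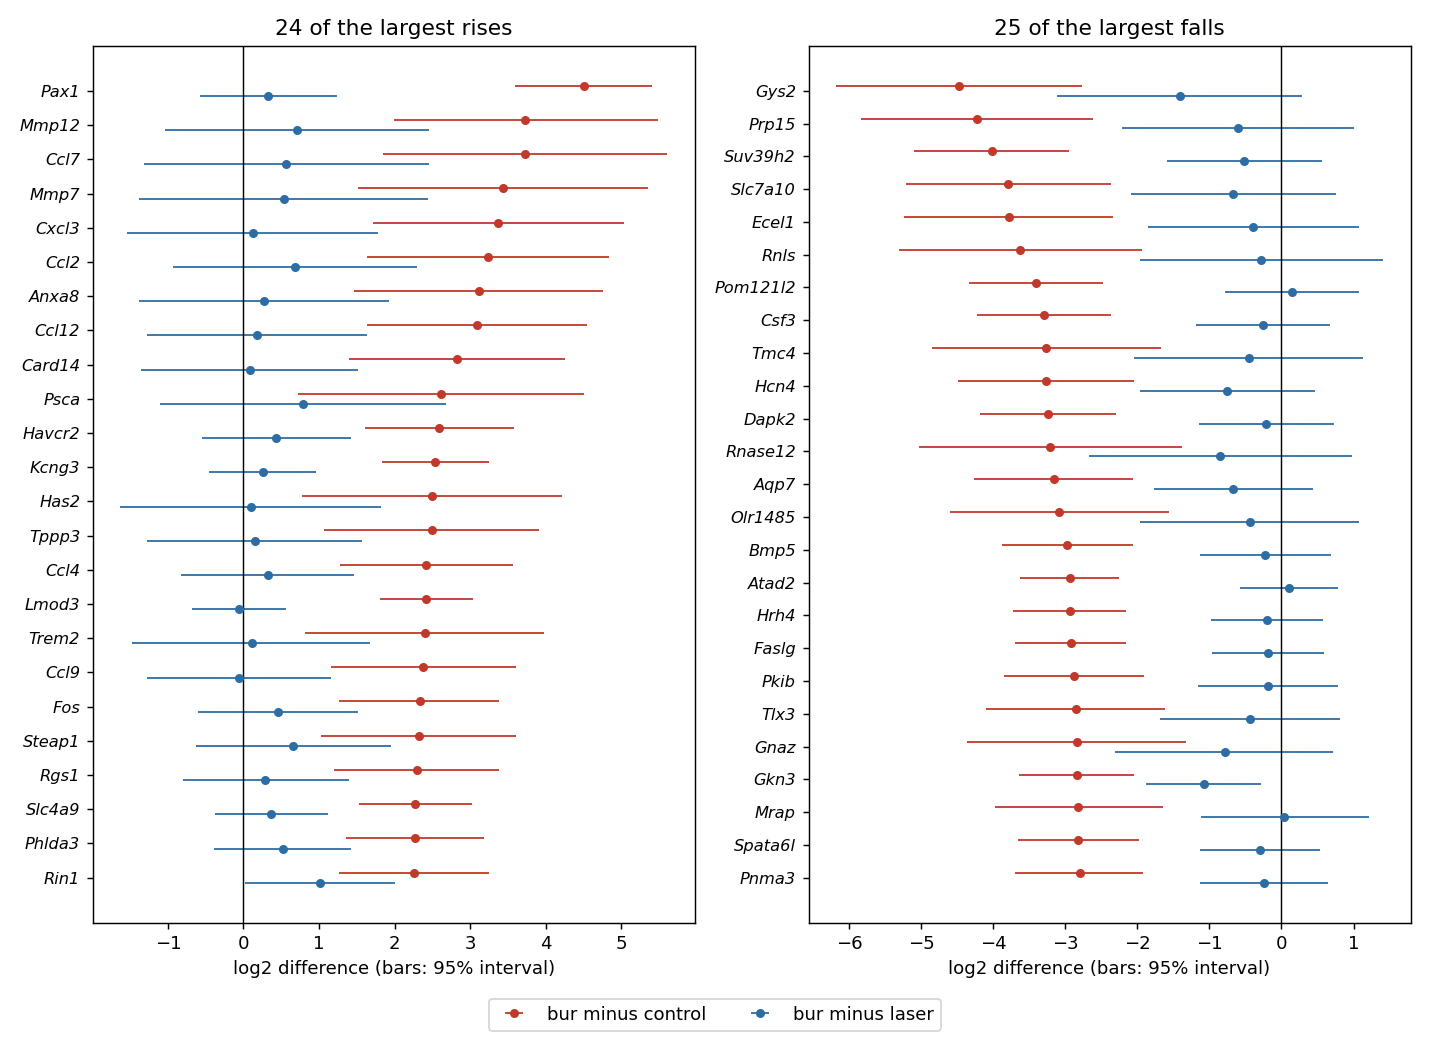
Log2 difference (x axis) of bur minus control (red) and bur minus laser (blue) for 24 of the 25 genes with the largest rise (left) and the 25 with the largest fall (right), with 95% intervals from the limma fit. Bur minus control is far from 0 by the choice of genes, while the interval of bur minus laser held 0 for 23 of 24 and 24 of 25.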

How the data were processed

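The deposited scanner files give spot intensity on a linear scale, background-subtracted within each array per the file headers (Agilent Feature Extraction 11.0.1.1, per the submitters' processing notes; build rn4). RNA was labelled with Cy3 (200 ng), per the labels' protocols. The authors also deposited log2 values and comparison tables with a log2 difference and p-value per line, made by steps not given in the sources used here. Values were log2 processed intensity minus the same array's 75th percentile (58717 spots that are not controls). Of 45598 probes 29775 were kept (well above background on at least 4 arrays), and the brightest stood for each gene. Limma 3.58.1 in R 4.3.3 was fitted to all 12 arrays, two-sided, with Benjamini-Hochberg adjustment, and was tested on simulated data. Members and lists were chosen with earlier results of these data known. Named are the 25 largest non-overlapping rises and falls off the marker lists, up to 5 passing members per list and direction, and markers as a description. Which of these are named was chosen after their values were seen, and some genes are not reported here. Of the genes, 11838 matched a reference table. Figures used Python 3.11.15 and matplotlib 3.10.9.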

Additional observations from a re-analysis of the deposited data

Results flagged for a closer look

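The spread within groups of 4 arrays was checked for 142 of the genes named with a call. In 14 of 284 such groups 1 array stood apart from the other 3 by more than Dixon's 95% critical value of 0.829. By chance this happens in about 1 in 20. Among bur arrays, replicate 4 was the low one for the chemokine genes Ccl7 (-0.53), Ccl12 (-0.51) and Ccl4 (-2.98) and for the Fc receptor gene Fcgr2a (2.40), and the high one for Plg (-2.53). Bur replicate 3 was high for Cxcl3 (-0.50) and Havcr2 (-0.66), and bur replicate 2 was low for Rin1 (-7.07) and high for Pnma3 (1.87). Among control arrays, replicate 4 was low for Anxa8 (-8.82) and Fdft1 (0.82), replicate 3 was high for Kcng3 (-8.06), replicate 2 was low for Phlda3 (-7.93) and replicate 1 was high for Gfra3 (-4.91).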

How the results depend on the processing

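Of the 2270 genes higher and 3678 lower in bur than in control bone, a fit on the 2 groups alone called 1483 higher, array weights 3631 higher, normexp 6306 lower, no detection filter 5750 lower among more genes tested, and the marrow score as covariate 1 and 0. Leaving out an array gave 878 to 3794 higher and 1911 to 4603 lower, and 0 to 0 either way in bur against laser, where no detection filter gave 1 lower. Other settings kept both counts within 1.5 times. Normexp turned the sign of Kcng3 (-0.11), Lmod3 (-0.12), Slc4a9 (-0.15), Rin1 (-0.18) and Hbegf (-0.03), and the marrow score that of Hp (0.19), Arg1 (-0.47) and Apoe (-0.18), the cause not being tested. Array weights ended 10 of the 142 named calls, among them Psca (2.09), Trem2 (1.43) and Lilrb4 (1.19), the 2 groups alone 22, and the mean of probes 7, Dpp4 (-0.93) and Socs7 (-0.38) among them. A refit of the deposited log2 values ended Psca (0.86), Pkib (-0.09, on another probe) and Tnfsf14 (-0.79). The numbers were not taken as pairs because no label says what they share. Same-numbered bur and control arrays deviated from their group means with correlations of 0.28, -0.05, 0.28 and 0.08. Arrays of unlike number gave -0.43 to 0.32, and bur replicates 1 and 3 matched the control of their own number best. A replicate block gave 2602 higher and 3976 lower and ended no named call. Genes near background on one side have sizes that depend on the background correction, and 4 arrays a group limit the precision.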

Other observations

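Marker levels of muscle, meninges and brain differed between arrays of a group. The mean of 10 skeletal muscle markers, set against the 12-array mean, was 2.84 on control replicate 1, 2.35 on bur replicate 1 and 0.86 on laser replicate 1, and between -0.86 and -0.34 on the other control and bur arrays. The mean of 9 meningeal markers was 1.42 on bur replicate 1 and 1.09 and 1.48 on control replicates 1 and 2, against -1.41 to -0.10 on the other control and bur arrays. The mean of 8 brain and glia markers was highest on control replicate 2, at 1.51, and on bur replicate 1, at 0.92. No marker of skeletal muscle or brain was called in bur against control.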
